A study of Rhodotorula toruloides with 36 samples.

Results

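The genes described here are the 3 that make and extend prenyl diphosphates in the oleaginous yeast Rhodotorula toruloides, IDI, ERG20 and GGPPS. They were chosen by name from the pathway genes of the study, by a rule that uses no measured value, and are 3 of 8490 native transcripts. ERG20 is transcript 13072, IDI is 16331 and GGPPS is 16631, its protein number plus 128. That offset of 128 had been set by matching fold changes of the pathway genes to those the study tabulates, so the fold changes of these genes are not independent of it. Transcript 13072 lies on scaffold 3, 502452 to 503977 (plus strand), of the IFO0880 genome. Transcript 16331 lies on scaffold 8, 1175352 to 1176737 (minus strand), and transcript 16631 on scaffold 9, 500801 to 502496 (plus strand). Each of these spans is 1 gene model with its introns.

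The mevalonate pathway ends in isopentenyl diphosphate (IPP). IDI, the IPP isomerase, interconverts IPP and dimethylallyl diphosphate, and ERG20, the farnesyl diphosphate (FPP) synthase, joins these units into FPP. FPP is the branch point: ERG9, squalene synthase, takes it into sterols, and GGPPS, the geranylgeranyl diphosphate synthase, lengthens it with IPP toward the carotenoids that colour this yeast and the lipid anchors of many proteins. In the engineered strains the α-bisabolene synthase BIS also draws on FPP.

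All strains shared the IFO0880 background. BIS18, BIS14 and BIS3 carried 1, 7 and 10 copies of P_GAPDH-BIS, in which the promoter of glyceraldehyde-3-phosphate dehydrogenase drives BIS, and GB2 is BIS3 with a further 6 copies of P_ANT-BIS. WT carried no cassette. Each engineered strain is 1 clone, so copy number, promoter and any other feature of a clone cannot be told apart. Cells grew in SD medium (2% glucose in the sample labels, 10 g/L in the study's methods) and were taken after 18 h, in exponential growth, and 48 h, in stationary phase. At each time there were 3 libraries of every engineered strain and 6 of WT, and all of WT were used but the one named below. The study speaks of 3 replicates, and the labels do not say which WT libraries these were. The labels do not say that these came from separate cultures, so the p-values measure the spread between these samples only, which may be technical.

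The counts of the 35 libraries used summed to 1092869 to 3102440 at 48 h (17 libraries, median 2061006) and to 1134992 to 2029181 at 18 h (18 libraries, median 1390360.5). WT replicate 2 at 48 h was left out by the rule that chose these genes. It held 657951 counts, of which 6 fell on IDI, 11 on ERG20 and 43 on GGPPS. In the libraries used, IDI had 72 to 259 counts, ERG20 76 to 751 and GGPPS 109 to 505, and all 3 passed the filter on low counts in every fit. BIS, which checks the strain labels, was near 0 in WT alone: its mean FPKM (counts scaled to transcript length and library total) was 399 for BIS18, 3127 for BIS14, 6092 for BIS3, 8309 for GB2 and 1.82 for WT at 18 h. Levels below are CPM, counts scaled to the library total and by TMM factors, which correct for differences in RNA composition. These factors ran from 0.769 to 0.786 in GB2 at 18 h, against 0.996 to 1.05 in WT. On the scale of library totals alone, the median log2 change of all transcripts against WT at 48 h was -0.16 (BIS18), -0.25 (BIS14), -0.08 (BIS3) and -0.26 (GB2). At 18 h it was 0.03 (BIS18), -0.12 (BIS14), -0.28 (BIS3) and -0.37 (GB2). Changes are given relative to that shift, on the TMM scale. A call is an adjusted p under 0.05 in the quasi-likelihood test of edgeR, with the Benjamini-Hochberg adjustment made over every transcript tested.

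At 48 h, IDI and ERG20 were higher than in WT in BIS14, BIS3 and GB2, while GGPPS was called in none of the strains. At 18 h all 3 genes were higher than in WT in the same 3 strains, ERG20 by the most in each. No member was called in BIS18 at either time. The 48 h count was thus 2 of 3 higher in BIS14, where 19.5% of the 7913 transcripts tested were called higher, 2 of 3 in BIS3 (13.5% of all) and 2 of 3 in GB2 (22.2%). For BIS18 at 48 h the count was 0 of 3 in edgeR (18.9% of all transcripts called in either direction), with 2 of 3 at an unadjusted p under 0.05 and 0 in DESeq2. The 18 h count was 3 of 3 higher in BIS14 (10.5% of 7375 transcripts called higher), 3 of 3 in BIS3 (17.3%) and 3 of 3 in GB2 (26.3%). For BIS18 at 18 h it was 0 of 3 in edgeR (0.529% of all called), 0 at an unadjusted p under 0.05 and 0 in DESeq2. The scale matters for such shares: in 7 of these 8 comparisons 48.5% to 60.0% of all calls were in the higher direction with TMM, and 19.4% to 36.6% on library totals. The medians of the 3 log2 changes at 18 h were 0.71 (BIS14), 0.65 (BIS3) and 0.61 (GB2), where the medians of all transcripts tested were -0.01, -0.03 and -0.05. Comparisons of strains with WT share the WT libraries.

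**Figure D1:**
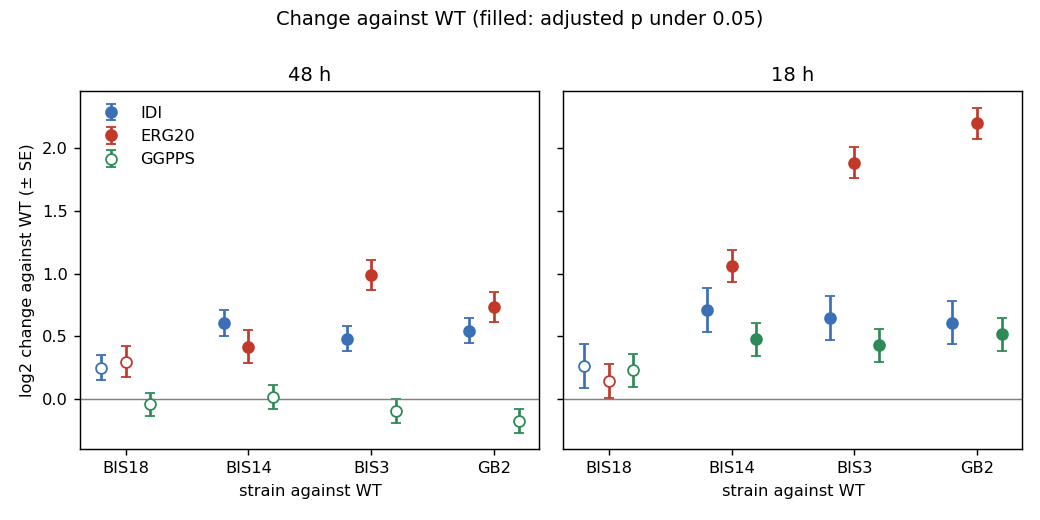
Log2 change of IDI, ERG20 and GGPPS against WT (vertical axis, ± standard error of the edgeR fit) in the 4 engineered strains, at 48 h (left) and 18 h (right). Filled points have an adjusted p under 0.05. At 18 h ERG20 reaches 2.20 in GB2 while IDI and GGPPS stay at or below 0.71 in every strain; at 48 h the GGPPS points lie between -0.17 and 0.02.

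IDI balances the pool of the isomeric units from which all prenyl diphosphates are built. At 48 h BIS18 had 85.3, 69.8 and 75.4 CPM of IDI, BIS14 had 92.8, 101 and 99.98, BIS3 had 89.2, 80.8 and 97.9 and GB2 had 90.6, 92.6 and 97.7. The 5 WT libraries gave 74.2, 69.2, 60.4, 62.5 and 56.9 CPM. Every library of BIS14, BIS3 and GB2 lay above every WT library, and only BIS18 overlapped WT. The log2 changes against WT were 0.25 in BIS18 (standard error 0.10, adjusted p = 0.0858), 0.61 in BIS14 (0.10, adjusted p = 0.000127), 0.48 in BIS3 (0.10, adjusted p = 0.00147) and 0.55 in GB2 (0.10, adjusted p = 0.000159), all by edgeR. The call in BIS3 ended with WT replicates 1 and 3 as the only WT libraries (log2 change 0.32, adjusted p = 0.0999), and that of BIS18 was made with WT replicates 4 to 6 only (0.35, adjusted p = 0.0220) and without WT replicate 1 (0.30, adjusted p = 0.0382). With WT replicate 2 kept in the fit none of the calls of IDI at 48 h stood, at 0.77 in BIS14 (adjusted p = 0.0822), 0.63 in BIS3 (adjusted p = 0.20) and 0.70 in GB2 (adjusted p = 0.0838). The calls in BIS14 and GB2 each held in the other 28 of 29 alternatives.

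At 18 h the IDI level was 86.7, 76.9 and 78.6 CPM for BIS18, 67.4, 123 and 139 for BIS14, 120.5, 94.9 and 107 for BIS3 and 108, 93.6 and 116 for GB2. WT replicates 1 to 6 gave 67.9, 78.9, 71.7, 76.6, 53.8 and 58.4 CPM. BIS3 and GB2 were clear of WT, whereas BIS14 replicate 1 lay inside the WT range and replicates 2 and 3 of BIS14 were above every library of the other strains. The spread in BIS14 (coefficient of variation 34.1%) was wider than the 9.28% that counting alone would give. The log2 changes against WT were 0.27 in BIS18 (standard error 0.17, adjusted p = 0.763), 0.71 in BIS14 (0.17, adjusted p = 0.00790), 0.65 in BIS3 (0.18, adjusted p = 0.00823) and 0.61 in GB2 (0.17, adjusted p = 0.00522). These calls turned on the libraries and the scale used. With only WT replicates 1 to 3, adjusted p was 0.0884 in BIS14, 0.0793 in BIS3 and 0.0563 in GB2. Leaving out BIS14 replicate 3 gave 0.50 (adjusted p = 0.0732), leaving out BIS3 replicate 1 gave 0.54 (adjusted p = 0.0574), and library totals gave 0.41 in BIS3 (adjusted p = 0.0991) and 0.28 in GB2 (adjusted p = 0.211). From one strain to the next, IDI was not called at either time. At 18 h the log2 change was 0.45 for BIS14 against BIS18 (adjusted p = 0.140), -0.06 for BIS3 against BIS14 (adjusted p = 0.904) and -0.04 for GB2 against BIS3 (adjusted p = 0.899). At 48 h the step nearest to the threshold was 0.36 for BIS14 against BIS18 (standard error 0.11, adjusted p = 0.0521), and 5 of 29 alternatives carried it past, among them WT replicates 4 to 6 only (0.35, adjusted p = 0.0270).

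ERG20 makes FPP, the substrate of BIS, and its transcript showed the widest range of the 3. Its mean levels ran in the order BIS3, GB2, BIS14, BIS18 and WT at 48 h, and GB2, BIS3, BIS14, BIS18 and WT at 18 h. The 48 h levels of ERG20 were 70.6, 64.3 and 59.8 CPM for BIS18, 86.0, 56.1 and 67.2 for BIS14, 106, 91.2 and 113 for BIS3 and 98.6, 85.0 and 78.0 for GB2. WT gave 57.8, 47.5, 46.8, 55.4 and 53.0 CPM. All libraries of BIS18, BIS3 and GB2 were above those of WT, and BIS14 replicate 2 was inside the WT range. The log2 changes against WT at 48 h were 0.30 in BIS18 (standard error 0.12, adjusted p = 0.0970), 0.42 in BIS14 (0.13, adjusted p = 0.0167), 0.99 in BIS3 (0.12, adjusted p = 4.40e-06) and 0.74 in GB2 (0.12, adjusted p = 4.73e-05). The call in BIS14 rested on few libraries: it was 0.21 without BIS14 replicate 1 (adjusted p = 0.258), 0.20 on library totals (adjusted p = 0.249) and 0.54 with WT replicate 2 kept (adjusted p = 0.114). Those in BIS3 and GB2 held under all 29 alternatives, between 0.91 and 1.11 in BIS3 and between 0.51 and 0.86 in GB2.

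At 18 h BIS18 had 135, 107 and 113 CPM of ERG20, BIS14 had 225, 207 and 240.0, BIS3 had 317, 538 and 358 and GB2 had 488, 505 and 541. The 6 WT libraries lay within 99.4 and 115 CPM. BIS18 overlapped WT, and BIS14, BIS3 and GB2 each lay above WT and BIS18 without overlap. BIS3 replicate 2 reached the level of GB2, and the BIS3 libraries varied by 29.1% (coefficient of variation), against 4.91% from counting alone. Against WT the log2 change was 0.14 in BIS18 (standard error 0.13, adjusted p = 0.822), 1.06 in BIS14 (0.13, adjusted p = 1.79e-05), 1.88 in BIS3 (0.13, adjusted p = 1.77e-09) and 2.20 in GB2 (0.12, adjusted p = 3.53e-11). The called changes amount to 2.08-fold for BIS14, 3.69-fold for BIS3 and 4.60-fold for GB2. No alternative ended a call of ERG20 in BIS14, BIS3 or GB2 at 18 h, and its lowest log2 changes over 29 alternatives were 0.95 in BIS14, 1.63 in BIS3 and 1.87 in GB2.

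From strain to strain at 18 h, ERG20 was higher by 0.92 in BIS14 than in BIS18 (log2, standard error 0.15, adjusted p = 0.00149) and by 0.83 in BIS3 than in BIS14 (0.15, adjusted p = 0.00292). With only the libraries of BIS3 and BIS14 in the fit, in which 0 transcripts were called, the 0.81 for ERG20 had an adjusted p of 0.355. ERG20 was the single member called in these steps, in which 7.11% and 1.27% of all transcripts were called higher. The difference of GB2 from BIS3 was 0.32 (0.14, adjusted p = 0.106) and was not called. It was 0.58 without BIS3 replicate 2 and past the threshold (adjusted p = 0.000846), and BIS3 against BIS14 was then 0.57 (adjusted p = 0.0141). No member was called in GB2 against BIS3 in edgeR (29.1% of all transcripts were), with 1 of 3 at an unadjusted p under 0.05 and 0 in DESeq2. At 48 h the differences of ERG20 were 0.12 for BIS14 against BIS18 (adjusted p = 0.620), 0.57 for BIS3 against BIS14 (0.14, adjusted p = 0.0156) and -0.25 for GB2 against BIS3 (0.13, adjusted p = 0.166). The members called in these 48 h steps numbered 0 for BIS14 against BIS18 (9.79% of all transcripts in either direction), 1 higher for BIS3 against BIS14 (2.33% of all higher) and 0 for GB2 against BIS3 (24.1% in either direction). For the steps with none, 1 and 0 members had an unadjusted p under 0.05 and 0 and 0 were called in DESeq2. The call of ERG20 in BIS3 against BIS14 at 48 h ended in 5 of 29 alternatives, with adjusted p up to 0.514, and without BIS14 replicate 2 the difference was 0.43 (adjusted p = 0.117).

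**Figure D2:**
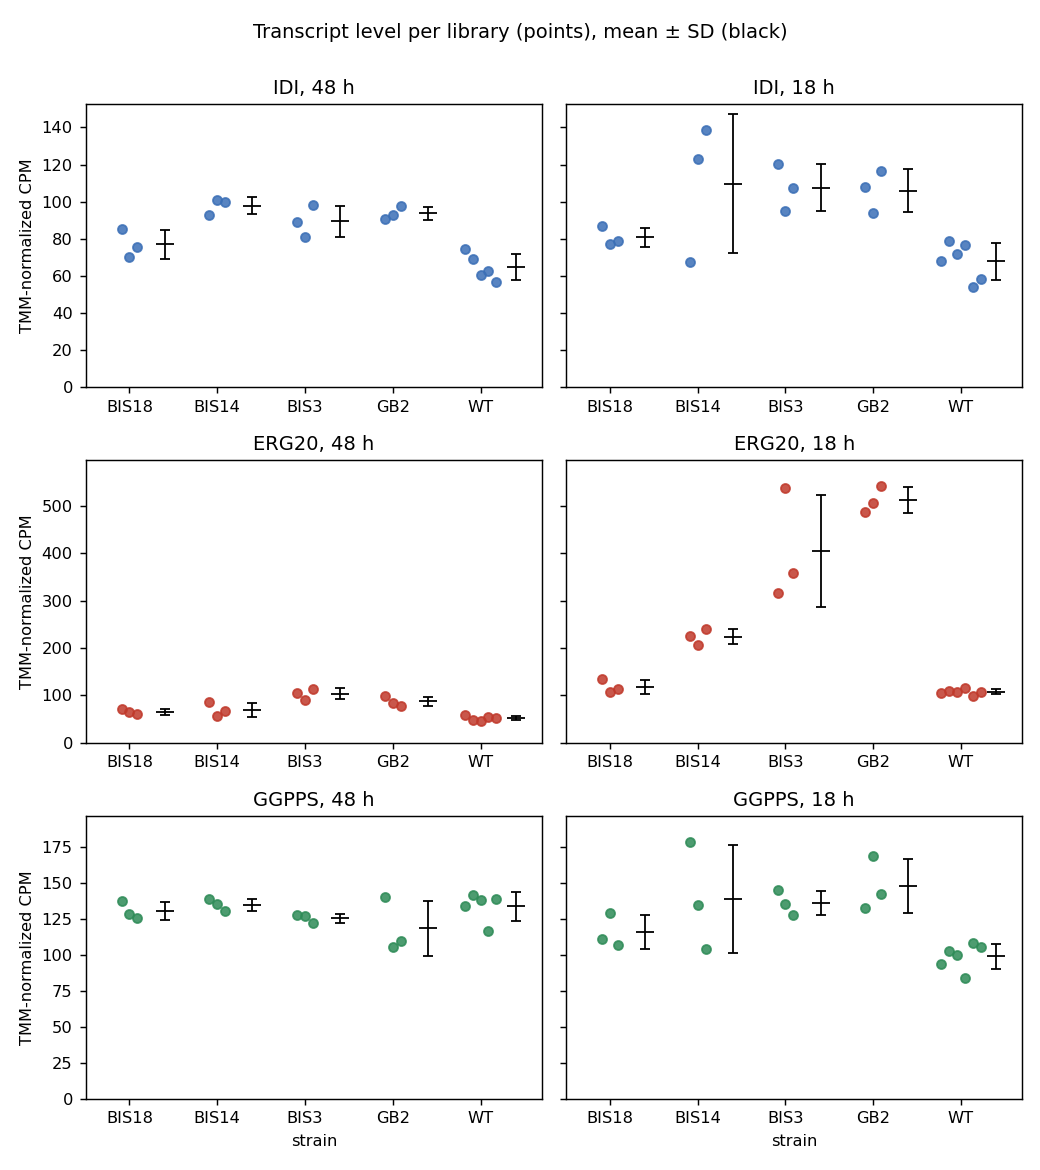
TMM-normalized CPM (vertical axis, from 0) of IDI, ERG20 and GGPPS in each library (points) by strain, at 48 h (left) and 18 h (right), with the mean and SD in black. ERG20 at 18 h lies at 488 to 541 CPM in GB2 and at 99.4 to 115 CPM in WT, while GGPPS at 48 h lies between 105 and 142 CPM in all 5 strains.

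GGPPS draws on the FPP that ERG20 makes. At 48 h its level was 138, 129 and 126 CPM for BIS18, 139, 135 and 131 for BIS14, 128, 127 and 122 for BIS3 and 140.3, 105 and 110.2 for GB2. WT gave 134, 142, 138, 117 and 139 CPM, and each strain overlapped it. The log2 changes against WT at 48 h were -0.04 in BIS18 (standard error 0.09, adjusted p = 0.784), 0.02 in BIS14 (0.10, adjusted p = 0.906), -0.10 in BIS3 (0.10, adjusted p = 0.480) and -0.17 in GB2 (0.09, adjusted p = 0.146). In GB2 it was called lower without GB2 replicate 1 (-0.31, adjusted p = 0.0164), and on library totals (-0.40, adjusted p = 0.00176).

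At 18 h BIS18 had 111, 129 and 107 CPM of GGPPS, BIS14 had 179, 135 and 104, BIS3 had 145, 136 and 128 and GB2 had 132, 169 and 143. WT had 93.6, 103, 99.8, 84.2, 109 and 106 CPM. BIS3 and GB2 lay above all WT libraries, and BIS18 and BIS14 overlapped WT. In BIS14 the library with the most GGPPS, replicate 1, was the one with the least IDI, and replicate 3 had the least GGPPS and the most IDI. The changes against WT were small: 0.23 in BIS18 (standard error 0.13, adjusted p = 0.728), 0.48 in BIS14 (0.13, adjusted p = 0.0175), 0.43 in BIS3 (0.13, adjusted p = 0.0186) and 0.52 in GB2 (0.13, adjusted p = 0.00221). In BIS14 the call ended without BIS14 replicate 1 (0.27, adjusted p = 0.165) and with WT replicates 1 to 3 only (adjusted p = 0.0821) or 4 to 6 only (0.0612). In BIS3 it ended without BIS3 replicate 1 (0.36, adjusted p = 0.0956), with WT replicates 1 to 3 only (adjusted p = 0.0704) or 4 to 6 only (0.0649), and on library totals (0.19, adjusted p = 0.226). In GB2 only library totals ended it (0.19, adjusted p = 0.170). No step from strain to strain was called for GGPPS at either time, where the log2 differences ran from -0.11 to 0.25.

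**Figure D3:**
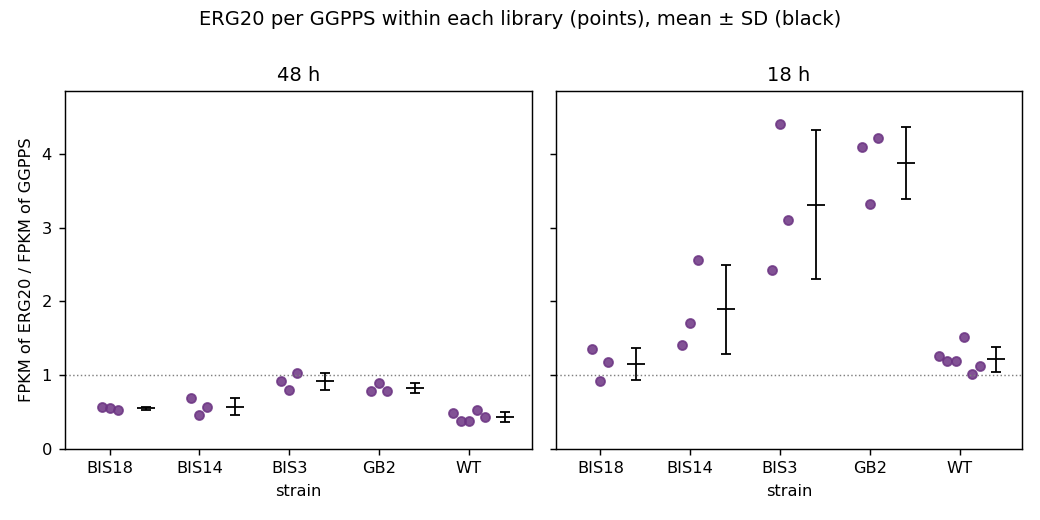
FPKM of ERG20 divided by FPKM of GGPPS (vertical axis, from 0) within each library, by strain, at 48 h (left) and 18 h (right), with the mean and SD in black; the dotted line marks equal FPKM. At 18 h the 3 GB2 libraries lie at 3.32 to 4.22 and WT at 1.02 to 1.52, and at 48 h all but 1 of the libraries lie below 1.

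Levels of different genes were compared per length, as ratios of FPKM within a library, which do not depend on the library's size. They are given as descriptions, without a test. Length here is the genomic span with introns, so whether a ratio lies above or below 1 depends partly on the unknown intron share. At 48 h the ratio of ERG20 to GGPPS was 0.569, 0.556 and 0.529 for BIS18, 0.686, 0.460 and 0.571 for BIS14, 0.922, 0.796 and 1.03 for BIS3 and 0.780, 0.896 and 0.787 for GB2. WT gave 0.480, 0.372, 0.377, 0.527 and 0.425. By this measure the gene that makes FPP was below the gene that lengthens it at 48 h, in all libraries but BIS3 replicate 3. At 18 h this ratio was 1.35, 0.917 and 1.17 for BIS18, 1.40, 1.70 and 2.57 for BIS14, 2.43, 4.41 and 3.10 for BIS3 and 4.09, 3.32 and 4.22 for GB2. WT gave 1.25, 1.19, 1.19, 1.52, 1.02 and 1.12. BIS3 and GB2 did not overlap WT, BIS18 did, and 1 of the 3 BIS14 libraries lay inside the WT range.

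The other outlets of FPP are ERG9 and, in the engineered strains, BIS. Per length, the ratio of ERG20 to ERG9 at 48 h was 1.13 ± 0.0548 for BIS18, 1.34 ± 0.149 for BIS14, 1.49 ± 0.286 for BIS3, 1.28 ± 0.165 for GB2 and 0.778 ± 0.0858 for WT (SD, n = 3 each and n = 5 for WT). At 18 h it was 1.78 ± 0.142 for BIS18, 3.03 ± 0.345 for BIS14, 4.41 ± 0.659 for BIS3, 4.29 ± 0.238 for GB2 and 1.60 ± 0.166 for WT (SD, n = 3 each and n = 6 for WT). BIS3 had the highest mean at both times, and it overlapped GB2. ERG9 per GGPPS at 18 h was 0.910 ± 0.159 in GB2 and 0.761 ± 0.0689 in WT (SD, n = 3 and n = 6), and the 2 sets of libraries overlapped. BIS exceeded ERG20 and GGPPS in every engineered library. At 48 h the mean ratio of BIS to ERG20 was 7.37 for BIS18, 59.0 for BIS14, 54.5 for BIS3 and 109.3 for GB2. At 18 h it was 5.02 for BIS18, 23.2 for BIS14, 28.2 for BIS3 and 31.9 for GB2, lower than at 48 h in each strain. The mean ratio of BIS to GGPPS was 4.06 for BIS18, 32.0 for BIS14, 49.5 for BIS3 and 89.6 for GB2 at 48 h. At 18 h it was 5.68 for BIS18, 41.7 for BIS14, 91.8 for BIS3 and 123 for GB2, higher than at 48 h in each strain. IDI was below GGPPS per length in each WT library at 48 h. The ratio of IDI to GGPPS averaged 0.719 for BIS18, 0.887 for BIS14, 0.870 for BIS3, 0.984 for GB2 and 0.593 for WT at 48 h. At 18 h it averaged 0.860 for BIS18, 1.07 for BIS14, 0.965 for BIS3, 0.891 for GB2 and 0.85 for WT, and BIS14 held both ends of the libraries, with 0.461 in replicate 1 and 1.63 in replicate 3.

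With rank 1 as the highest FPKM of the 8490 native transcripts in a library, ERG20 had a median rank of 2240 in GB2 and 3702 in WT at 48 h, and of 356 in GB2 and 1748.5 in WT at 18 h. The median rank of IDI was 1833 in GB2 and 2773 in WT at 48 h, and 1684 in GB2 and 2465.5 in WT at 18 h. That of GGPPS was 1876 in GB2 and 1295 in WT at 48 h, and 1551 in GB2 and 2079 in WT at 18 h. In WT, GGPPS therefore had the best median rank of the 3 at 48 h and ERG20 at 18 h, on lengths that include introns.

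Between the times the 3 genes parted. ERG20 was lower at 48 h than at 18 h in every strain. IDI was called in none, and GGPPS was higher at 48 h in WT. The log2 changes of ERG20, 48 h against 18 h, were -0.87 in BIS18 (standard error 0.15, adjusted p = 1.07e-05), -1.68 in BIS14 (0.16, adjusted p = 3.88e-11), -1.96 in BIS3 (0.15, adjusted p = 1.22e-13), -2.55 in GB2 (0.15, adjusted p = 1.30e-16) and -1.04 in WT (0.12, adjusted p = 1.04e-09). No strain's 48 h and 18 h libraries overlapped for ERG20, and the calls held in all 46 alternatives. GB2 thus averaged 87.2 ± 10.4 CPM at 48 h and 511 ± 27.4 at 18 h (SD, n = 3 each), and WT 52.1 ± 4.84 at 48 h and 107 ± 5.24 at 18 h (SD, n = 5 and n = 6). For GGPPS the change was 0.17 in BIS18 (0.13, adjusted p = 0.276), -0.03 in BIS14 (0.14, adjusted p = 0.85), -0.12 in BIS3 (0.14, adjusted p = 0.466), -0.31 in GB2 (0.13, adjusted p = 0.0385) and 0.43 in WT (0.10, adjusted p = 0.000243). In WT the call held in all 46 alternatives. Transcript 16630, which overlaps GGPPS on the other strand, was also higher at 48 h in WT, by 0.42 (adjusted p = 0.000453). It was called higher in BIS3 too, by 0.36 (adjusted p = 0.0306), where GGPPS was not called. The part of 16630 in the change of GGPPS was not tested. In GB2 the call of GGPPS was lost in 20 of 46 alternatives, DESeq2 and RLE factors among them, and turned to 0.05 on library totals. The IDI changes were -0.07 (BIS18), -0.17 (BIS14), -0.26 (BIS3), -0.18 (GB2) and -0.07 (WT), with adjusted p between 0.169 and 0.726. Without BIS14 replicate 1 at 18 h the change of IDI in BIS14 was called, at -0.42 (adjusted p = 0.0121). On library totals the median of all transcripts between the times was 0.46 in BIS3, 0.38 in GB2 and 0.25 in WT, and IDI came out above 0 in these 3 strains and GGPPS in all 5, whereas ERG20 stayed below 0 in every strain. With totals 65.6% to 74.8% of all calls were higher at 48 h in BIS3, GB2 and WT, against 49.9% to 51.8% with TMM. The members called lower at 48 h were 1 of 3 in BIS18 (28.5% of all 7899 transcripts), 1 of 3 in BIS14 (26.9%), 1 of 3 in BIS3 (29.7%), 2 of 3 in GB2 (32.0%) and 1 of 3 in WT (34.9%). GGPPS in WT was the 1 member called higher, beside 37.1% of all transcripts.

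**Figure D4:**
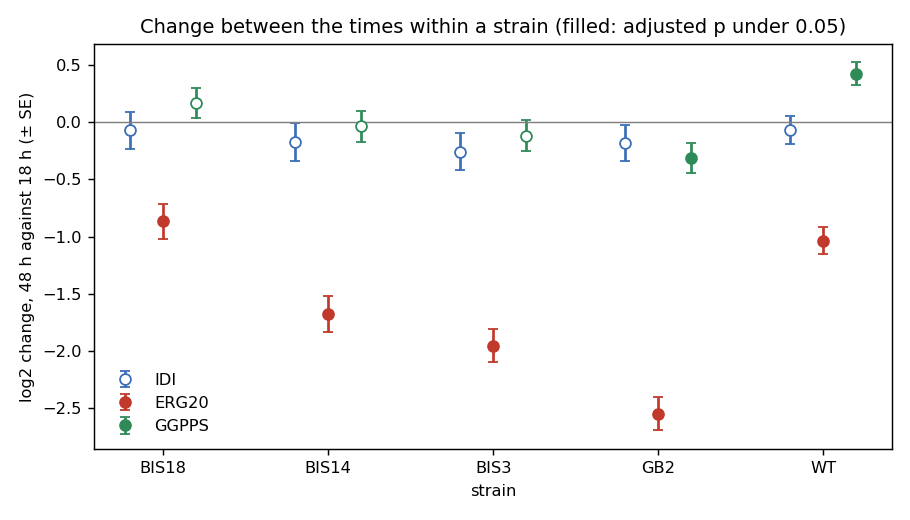
Log2 change between 48 h and 18 h (vertical axis, ± standard error of the edgeR fit) for IDI, ERG20 and GGPPS in each strain. Filled points have an adjusted p under 0.05; ERG20 runs from -0.87 in BIS18 to -2.55 in GB2, and GGPPS from -0.31 in GB2 to 0.43 in WT.

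Whether a strain's difference from WT itself changed between the times was tested by the interaction term of 1 fit of both times. For ERG20 the difference was smaller at 48 h than at 18 h by 0.64 in BIS14 (log2 term -0.64, standard error 0.19, adjusted p = 0.0214), by 0.92 in BIS3 (-0.92, 0.18, adjusted p = 0.000532) and by 1.51 in GB2 (-1.51, 0.18, adjusted p = 5.15e-08). In BIS18 the term was 0.17 (0.19, adjusted p = 0.701). For GGPPS it was -0.26 in BIS18 (0.16, adjusted p = 0.434), -0.46 in BIS14 (0.17, adjusted p = 0.0579), -0.54 in BIS3 (0.17, adjusted p = 0.0211) and -0.74 in GB2 (0.16, adjusted p = 0.000509). For IDI it ran from -0.19 to -0.00, with adjusted p from 0.558 to 0.997. The calls of ERG20 in BIS3 and GB2 and of GGPPS in GB2 held in all 45 alternatives. That of ERG20 in BIS14 was lost in 5 and that of GGPPS in BIS3 in 6, while GGPPS in BIS14 was called in 5. Members with a negative term past the threshold were 1 of 3 in BIS14 (6.67% of all transcripts), 2 of 3 in BIS3 (8.66%) and 2 of 3 in GB2 (20.4%). In BIS18 it was 0 of 3 in edgeR (3.41% of all in either direction), with 0 at an unadjusted p under 0.05 and 0 in DESeq2. These terms share the WT libraries.

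The pathway around the 3 genes was read from 14 other genes whose changes in these samples the study itself presents. How it chose them is not stated, so they are no independent evidence of a direction. At 48 h none of the 14 passed in BIS18 in edgeR or DESeq2 (3 at an unadjusted p under 0.05). In BIS14 7 were higher and 3 lower, where 19.5% of all transcripts were called higher and 16.3% lower. In BIS3 8 were higher (13.5% of all), and in GB2 9 were higher (22.2% of all). At 18 h none passed in BIS18 in edgeR or DESeq2 (1 at an unadjusted p under 0.05). In BIS14 10 were higher (10.5% of all), in BIS3 11 were higher (17.3% of all), and in GB2 12 were higher and 1 lower, where 26.3% of all transcripts were called higher and 28.0% lower. The medians of the 14 log2 changes at 48 h were 0.11 (BIS18), 0.26 (BIS14), 0.46 (BIS3) and 0.55 (GB2), and those of all transcripts tested lay between -0.03 and 0.0011. At 18 h they were -0.02 (BIS18), 0.51 (BIS14), 0.73 (BIS3) and 1.28 (GB2), and those of all transcripts lay between -0.05 and -0.0023.

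Upstream of IDI, the 3 early mevalonate genes rose in GB2 at 18 h: ERG13, the HMG-CoA synthase, by 3.41 (log2, adjusted p = 5.66e-11), ERG10, the acetyl-CoA acetyltransferase, by 1.92 (adjusted p = 4.16e-11) and HMGR, the HMG-CoA reductase, by 1.23 (adjusted p = 1.63e-08). Of the 3 lower mevalonate genes, whose product IDI uses, 1 rose, 1 fell and 1 was not called. Mevalonate kinase (MK) fell (-0.82, adjusted p = 0.000459), the phosphomevalonate kinase gene PMK was at 0.10 (adjusted p = 0.534) and MVD, the mevalonate diphosphate decarboxylase, rose by 0.94 (adjusted p = 0.000121). IDI, at 0.61, lay below MVD, and ERG20, at 2.20, below ERG13 and near ERG7. Past ERG20, the sterol genes rose at 18 h in GB2: ERG9 by 0.77 (adjusted p = 3.92e-06), ERG1, the squalene epoxidase, by 1.48 (adjusted p = 9.93e-09), ERG7, the lanosterol synthase, by 2.38 (adjusted p = 1.77e-09) and ERG11, the lanosterol demethylase, by 1.33 (adjusted p = 2.78e-07). At the branch itself, ERG9 at 0.77 and GGPPS at 0.52 thus stood beside 2.20 for ERG20. The genes of acetyl-CoA and fatty acid supply rose too, ATP citrate lyase (ACLY) by 1.53, ACC1, the acetyl-CoA carboxylase, by 1.19, and the fatty acid synthase subunits FAS2 by 1.75 and FAS1 by 0.80.

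At 48 h ERG7 was higher in GB2 than in WT by 0.87 (adjusted p = 1.10e-06), ERG10 by 0.86 (adjusted p = 5.93e-05), HMGR by 0.85 (adjusted p = 1.01e-05), ERG13 by 0.66 (adjusted p = 7.55e-06) and ERG1 by 0.65 (adjusted p = 7.19e-05), beside 0.74 for ERG20 and 0.55 for IDI. The 2 other genes at the FPP branch were not called, GGPPS at -0.17 and ERG9 at 0.02 (adjusted p = 0.879), and neither were MK, PMK, MVD and ERG11, which lay between -0.17 and 0.09. All 4 genes of acetyl-CoA and fatty acid supply were called higher in GB2 at 48 h, with a median log2 change of 0.61. The interaction term in GB2 was past the threshold for 11 of the 14 in the negative direction (20.4% of all transcripts) and for MK in the positive (19.6% of all). It was -2.80 for ERG13 and -1.57 for ERG7, beside -1.51 for ERG20.

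**Figure D5:**
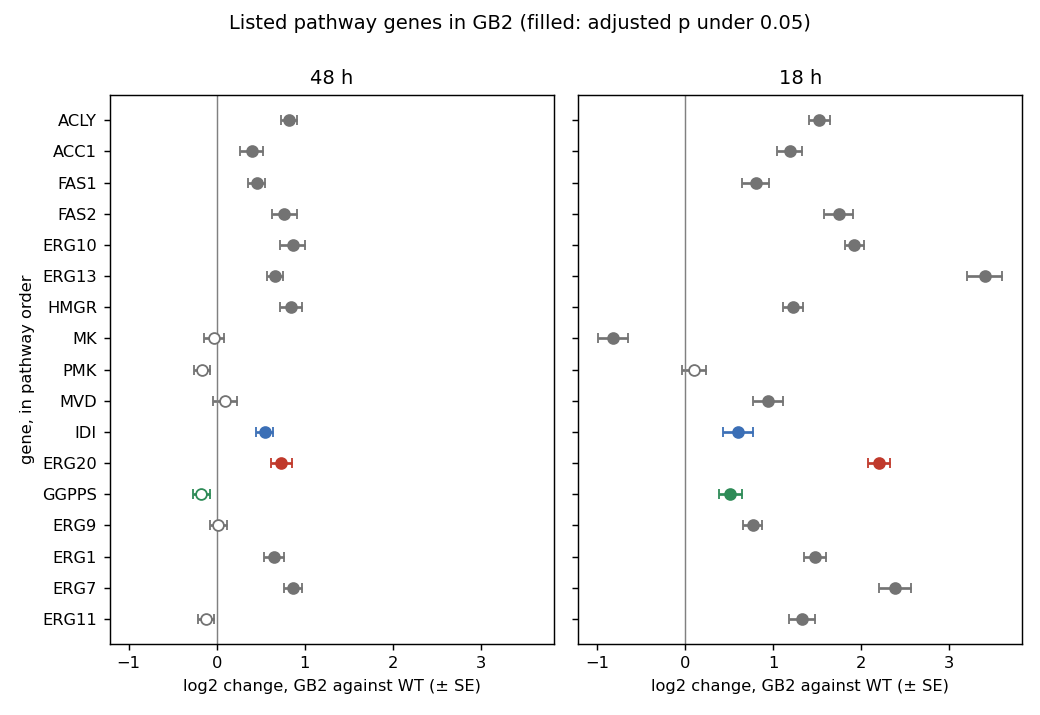
Log2 change in GB2 against WT (horizontal axis, ± standard error of the edgeR fit) of the 17 listed genes in pathway order, at 48 h (left) and 18 h (right), with IDI, ERG20 and GGPPS in colour and filled points at an adjusted p under 0.05. At 18 h ERG13 (3.41), ERG7 (2.38) and ERG20 (2.20) lie farthest to the right and MK (-0.82) alone lies left of 0.

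The patterns of the 3 genes over the 10 groups of strain and time were set against those of other transcripts with a mean of at least 10 CPM, by Pearson's r between group means of log2 CPM. This is a description over 10 group means that share libraries, strains and normalization. ERG20 was most like ERG7 among the listed genes (r = 0.989, rank 2 of 7175 transcripts), followed by ERG13 (0.972, rank 18) and ERG10 (0.967, rank 28). Outside the list its nearest transcript was 11993 (r = 0.994, scaffold 18, 240983 to 241975), which averaged 243 ± 32.0 CPM in GB2 and 117 ± 11.6 in WT at 18 h. For IDI the nearest listed gene was ERG1 (r = 0.881, rank 13), and the nearest other transcript was 15471 (r = 0.942, scaffold 7, 578041 to 580881). The cassette entries BIS (r = 0.936) and Nat (0.878) were also near IDI. WT does not carry them, so their r includes the split of WT from the engineered strains. For GGPPS the nearest listed gene was ERG11 (0.811, rank 25), and the nearest other transcript was 10566 (r = 0.936, scaffold 13, 2521 to 3195). Among themselves, r was 0.698 between IDI and ERG20, 0.576 between IDI and GGPPS and 0.381 between ERG20 and GGPPS.

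The members sit on 3 different scaffolds, and some of the transcripts next to them changed in the same direction. Around ERG20 the 18 nearest transcripts tested had a median log2 change of -0.14 in GB2 against WT at 18 h, against 2.20 for ERG20 itself. Transcript 13073, which starts 608 bases after ERG20, was called higher than in WT in GB2 at 48 h (0.40, adjusted p = 0.0125) and in BIS14 at 18 h (0.82, adjusted p = 0.0114), and at 18 h it was at 0.31 in GB2 (adjusted p = 0.235). Transcript 13071, which ends 143 bases before ERG20, was called once against WT, lower in BIS18 at 48 h (-0.39, adjusted p = 0.0435). Against WT it was at 0.12 in GB2 at 18 h (adjusted p = 0.590). Between the times, 13071 was called higher at 48 h in BIS14 (0.46, adjusted p = 0.0481), BIS3 (0.57, adjusted p = 0.00780) and WT (0.35, adjusted p = 0.0111). Transcript 13073 was called higher at 48 h in every strain, by 1.04 in BIS14 to 1.91 in GB2, whereas ERG20 was lower. Around IDI the median of the 18 nearest was -0.15 in GB2 at 18 h. Transcript 16332, 110 bases from IDI, was called higher than in WT in BIS14 at 48 h (0.30, adjusted p = 0.0371). At 18 h it was called higher in BIS14 (0.45, adjusted p = 0.0129), BIS3 (0.55, adjusted p = 0.00157) and GB2 (0.29, adjusted p = 0.0411). It was not called at 48 h in BIS3 (0.17, adjusted p = 0.255) or GB2 (-0.06, adjusted p = 0.696), where IDI was. Between the times it was called lower at 48 h in BIS14 (-0.41), BIS3 (-0.65), GB2 (-0.65) and WT (-0.25), where IDI was not called. On the other side of IDI, transcript 16330 was lower than in WT at 18 h in BIS3 (-0.48, adjusted p = 0.0145) and GB2 (-0.51, adjusted p = 0.00387). Around GGPPS the 16 nearest had a median of 0.21. GGPPS overlaps its neighbours on the opposite strand, 16630 by 60 bases and 16632 by 14 bases, and the library kit does not mark strand, so reads in these ends cannot be told apart. Transcript 16630 held 71 to 357 counts per library and was not called against WT in any strain at either time (0.04 in GB2 at 18 h, adjusted p = 0.816), and 16632 held 0 to 24 counts.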

How the data were processed

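RNA was sequenced from R. toruloides WT and 4 α-bisabolene-producing strains at 18 h and 48 h (36 libraries, TruSeq RNA v2, MiSeq paired ends). Per the study's methods and the submitters' notes, the authors cleaned reads in BBTools, used HISAT2 to align them to IFO0880 with cassette sequence added, and took counts with featureCounts. Tool versions, the strand setting and the treatment of reads with several matches are not given in the sources used here. The deposited values are raw counts for 8493 entries, not normalized (BIS, Nat and Hyg among them), and 0 columns of other samples were left out.

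Tests on the counts used edgeR 4.0.16 (R 4.3.3): TMM, filterByExpr, quasi-likelihood fits with strain-by-time group as the only term, and Benjamini-Hochberg adjustment over all transcripts tested (threshold 0.05). Fits held the 18 libraries at 18 h, the 17 used at 48 h, or all 35 for changes between times and interaction terms. CPM are on TMM scale over the 35 libraries, and FPKM used library totals and the listed length, which equals the genomic span. The fits were tested on simulated data. Alternatives were RLE factors, library totals, cassette entries left out, no filter, at least 10 counts in every library, DESeq2 1.42.0, WT replicates 1 to 3 or 4 to 6 only, WT replicate 2 at 48 h kept, only the 2 groups compared, 1 fit of both times, the fit blocked on replicate number, and leaving out single libraries one by one. Figures used Python 3.11.15, pandas 2.3.3, numpy 2.4.6 and matplotlib 3.10.9.

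The members and lists were chosen with earlier results of these data known. Genes named are the 3 members, 14 other pathway genes of the study, the cassette entries, the transcripts next to each member and, for each member, the transcript outside the list with the most similar pattern (mean of at least 10 CPM). Counting error is the only error behind the stated counting spread, since reads without molecular identifiers are not independent molecules. The gene table given for strain NP11 did not match these identifiers, so no sequences are shown, and protein data were not analysed here.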

Additional observations from a re-analysis of the deposited data

Results flagged for a closer look

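In the 6 WT libraries at 48 h, replicate 2 lay far from the 5 others for all 3 genes. Its FPKM was 6.58 for IDI, against 48.1 to 62.2 in the others, 10.96 for ERG20, against 36.0 to 44.0, and 38.5 for GGPPS, against 81.6 to 97.9. This library held 657951 counts and was left out above. Chance would mark about 1 in 20 groups tested in this way, and 9 were tested. All 3 marks come from 1 library that the rule had already left out, so they are not independent.

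The difference from WT changed between 18 h and 48 h, by the interaction term, for ERG20 in BIS14 (-0.64), BIS3 (-0.92) and GB2 (-1.51) and for GGPPS in BIS3 (-0.54) and GB2 (-0.74).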

How the results depend on the processing

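Of the 24 differences of a member from WT, 9 kept their direction and their side of the threshold under every alternative, and of all 69 tested member results 24 did. ERG20 at 18 h in BIS14, BIS3 and GB2, ERG20 at 48 h in BIS3 and GB2, and the lower level of ERG20 at 48 h than at 18 h in each strain were among those that kept both. The small changes of IDI and GGPPS turned on the settings, and the cause was not tested. For IDI at 48 h in BIS14 and GB2, only keeping WT replicate 2 ended the call. The log2 change from WT is given with the call ended unless stated.

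With WT replicates 1 to 3 only, the 18 h values were 0.59 for IDI and 0.48 for GGPPS in BIS14, 0.53 and 0.43 in BIS3, and 0.49 for IDI in GB2. The 48 h values were 0.40 for ERG20 in BIS14 and 0.32 for IDI in BIS3, and GGPPS in BIS14, not called, turned to -0.026. With WT replicates 4 to 6 only, GGPPS at 18 h was 0.47 in BIS14 and 0.43 in BIS3, and IDI in BIS18 at 48 h became a call at 0.35. On library totals the 18 h values were 0.41 for IDI and 0.19 for GGPPS in BIS3 and 0.28 and 0.19 in GB2, and ERG20 in BIS14 at 48 h was 0.20. There GGPPS in GB2 at 48 h became a call at -0.40. With WT replicate 2 at 48 h kept, the 48 h values were 0.77 for IDI and 0.54 for ERG20 in BIS14, 0.63 for IDI in BIS3 and 0.70 for IDI in GB2, and GGPPS, not called, turned to 0.064 in BIS18 and 0.0094 in BIS3.

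Deviations from group means showed little sign of pairing by replicate number. Same-numbered libraries of 2 strains at 1 time had a median correlation of 0.0147 over 56 pairs (-0.230 to 0.330, 11 over 0.1). Differently numbered ones had -0.0074 over 184 pairs (36 over 0.1). Same-numbered libraries of 1 strain at both times had 0.0173 over 17 pairs (-0.281 to 0.279, 6 over 0.1), and differently numbered ones -0.0035 over 49 pairs (14 over 0.1). The labels do not state pairing, and with 3 libraries in most groups these medians cannot settle it. With the replicate block the 18 h values were 0.58 for IDI and 0.47 for GGPPS in BIS14, 0.53 and 0.43 in BIS3 and 0.49 for IDI in GB2, IDI in BIS3 at 48 h was 0.34, and GGPPS in BIS14 at 48 h turned to -0.0081. Under the block the transcripts called at 18 h fell to 406 in BIS14 and 1243 in BIS3, against 1295 and 2404 without it. Replicate numbers above 3 occur only in WT. In a fit of 1 time the block therefore gives those WT libraries no weight in the comparisons with WT. It thus comes close to the setting with WT replicates 1 to 3 only, which gave 467 in BIS14 and 1383 in BIS3. Pairing was not tested apart from the loss of those libraries.

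Leaving out single libraries gave 0.50 to 0.97 for IDI and 0.27 to 0.64 for GGPPS in BIS14 at 18 h, 0.54 to 0.74 for IDI and 0.36 to 0.46 for GGPPS in BIS3 at 18 h, and at 48 h 0.18 to 0.31 for IDI in BIS18, 0.21 to 0.56 for ERG20 and -0.031 to 0.040 for GGPPS in BIS14, and -0.31 to -0.095 for GGPPS in GB2. Values not called that crossed 0 in this way were IDI (-0.33 to 0.15) and GGPPS (-0.22 to 0.15) in BIS3 against BIS14 at 18 h, IDI in GB2 against BIS3 at 18 h (-0.12 to 0.081), ERG20 in BIS14 against BIS18 (-0.078 to 0.27) and GGPPS in GB2 against BIS3 at 48 h (-0.21 to 0.0023), IDI (-0.42 to 0.029) and GGPPS (-0.21 to 0.18) in BIS14 between the times, and the interaction terms of IDI in BIS18 (-0.080 to 0.060), BIS14 (-0.35 to 0.10) and GB2 (-0.19 to 0.0060).

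Other reversals were small. On library totals the 48 h values were -0.20 for GGPPS in BIS14 against WT, -0.026 for GGPPS in BIS14 against BIS18, 0.016 for IDI and 0.026 for GGPPS in BIS3 against BIS14, and -0.079 for IDI in GB2 against BIS3. Between the times they were 0.13 for IDI and 0.28 for GGPPS in BIS3, 0.085 for GGPPS in BIS14, 0.18 for IDI and 0.051 for GGPPS in GB2, and 0.15 for IDI in WT, and the interaction terms were -0.010 for ERG20 in BIS18 and 0.034 for IDI in GB2. With at least 10 counts in every library, IDI between the times was 0.033 in BIS18 and 0.073 in WT, and GGPPS 0.067 in BIS14 and 0.0088 in BIS3. The interaction term of IDI in BIS18 was 0.015 with RLE factors, 0.0015 without the cassette entries, 0.015 in DESeq2 and 0.15 with WT replicate 2 kept, which also gave 0.050 in BIS14 and 0.038 in GB2.

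Counts of all transcripts called moved by over 1.5 times mostly with fewer libraries. In BIS18 at 18 h they were 39, and 131 with WT replicates 1 to 3. In BIS3 against BIS14 at 18 h they were 213, 0 with only these libraries and 432 with all 35 in 1 fit. At 48 h, keeping WT replicate 2 gave 237 calls for BIS18, 1058 for BIS14, 502 for BIS3 and 1554 for GB2, against 1497, 2827, 1977 and 3382 with it left out. The FPKM group means moved by over 1 SD with TMM library sizes in 10 of 30 groups. Counting alone gave a coefficient of variation of 6.92% to 10.02% for IDI within a group, and the observed one reached 34.1%.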
